A study of Canis lupus familiaris with 58 samples.

Results

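The enzymes described here make the building blocks of DNA and RNA. They were followed through 7 genes, chosen by symbol because they span purine synthesis (PPAT, PAICS, ATIC), pyrimidine synthesis (CAD), the making of deoxynucleotides and thymidylate (RRM2, TYMS) and the loading of nucleotides with phosphate (NME1). All 7 genes had a probe set with a single gene symbol, out of 15115 genes measured, and a gene's value is the log2 expression of its probe set with the highest mean. Affymetrix canine expression arrays were hybridised with RNA from B-cell lymphomas of 58 client-owned pet dogs, 1 array per dog, sampled before any treatment and typed as B cell by flow cytometry or by immunohistochemistry. Lymph node tissue came from 39 dogs, of which 32 had diffuse large B-cell lymphoma (DLBCL, a fast-growing lymphoma) and 7 had marginal zone lymphoma (MZL). Fine needle aspirates came from the other 19 dogs, whose pathology diagnosis is unknown. The labels give each tumour's mutation status of IGHV, the antibody heavy chain's variable gene, which was static in 26 dogs (18 DLBCL, 1 MZL and 7 aspirates), ongoing in 27 dogs (12 DLBCL, 4 MZL and 11 aspirates) and ND, which the labels do not explain, in 5 dogs. No strain, age or drug is part of these groups. Progression-free survival (PFS) was given for 55 dogs with 47 events and overall survival (OS) for 56 dogs with 41 events, in a time unit that the labels do not state.

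Purines are built step by step on a ribose phosphate. PPAT catalyses the first committed step, PAICS joins a pair of middle steps in 1 protein, and ATIC closes the purine ring. CAD carries the opening reactions of pyrimidine synthesis, RRM2 is the small subunit of ribonucleotide reductase, which turns ribonucleotides into deoxyribonucleotides, TYMS makes thymidylate, and NME1 is a nucleoside diphosphate kinase. Dividing lymphocytes need large amounts of nucleotides, and several of these genes are known targets of the transcription factors MYC and E2F in human and mouse cells.

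The arrays were alike in level, with medians from 7.08 to 7.20 on the log2 scale, and their number limits the precision. The B-cell antigen gene MS4A1 ran from 6.96 to 13.79 (median 12.73) and the B-cell receptor gene CD79B from 7.98 to 12.53 (median 10.82). The lowest MS4A1 value, in dog 22 (static lymph node DLBCL), went with a CD79B level of 10.42. The T-cell gene CD3D was also bright in these bulk samples, with a median of 13.05. MS4A1 and CD3D had the highest medians of the B-cell and T-cell markers read here. The other B-cell markers went down to 7.21 for PAX5, with CD79A at 8.67 and CD22 at 8.43. The other T-cell markers went down to 6.54 for CD8A, with CD3E at 9.43 and CD5 at 8.27. Dogs 12 (an ongoing aspirate) and 42 (a static aspirate) had the arrays least like the others. Dogs 12 and 41 (a static lymph node DLBCL) stood highest, at 2.28 and 3.23, for the log2 signal of 3′ over 5′ control probe sets of ACTB and GAPDH (the 3′ minus 5′ difference), which grows as RNA breaks down. The IGHV status differences of PPAT, RRM2 and PAICS over all dogs and in aspirates are given with and without dogs 12 and 42. Marker and proliferation genes in aspirates are given with both dogs only, and single other pathway genes are not given both ways.

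PPAT varied most among the 7 genes. Its level was 6.90 in the lowest dog, 8.62 at the median and 10.93 in the highest, a range of 16.3-fold, and its standard deviation of 0.89 was larger than that of 97.5% of all genes. The highest dogs were 39 (static lymph node DLBCL, 10.93), 42 (static aspirate, 10.85) and 14 (static lymph node DLBCL, 10.68), and the lowest was dog 18, also a static lymph node DLBCL. RRM2 ran from 10.26 through a median of 11.40 to 12.76 (SD 0.57, above 90.7% of genes). PAICS ran from 10.79 to 12.93 (SD 0.45) and NME1 from 10.51 to 12.53 (SD 0.44). TYMS, CAD and ATIC were steadier, with SDs of 0.31, 0.31 and 0.28 against a median SD of 0.25 over all genes. Levels of different genes come from different probe sets and are not set against each other.

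The first comparison set static against ongoing IGHV status; ongoing hypermutation is a feature of germinal centre B cells. All 7 enzyme genes had a higher mean in static than in ongoing tumours after adjustment for specimen and diagnosis, but limma called none of them. PPAT had a level of 6.90 in the lowest static dog, 9.10 at the median and 10.93 in the highest (9.08 ± 1.06, SD, n = 26). In ongoing dogs it ran from 7.26 through 8.52 to 9.79 (8.60 ± 0.67, n = 27), so the groups overlapped over most of their range. The difference was 0.56 ± 0.25 (SE) on the log2 scale, a fold of 1.47, with a p of 0.0290 and an adjusted p of 0.686 over all genes. RRM2 was 11.60 ± 0.57 in static and 11.26 ± 0.56 in ongoing dogs, a difference of 0.34 ± 0.16 (fold 1.26, adjusted p = 0.691). For PAICS the means were 11.97 ± 0.45 and 11.74 ± 0.43, a difference of 0.24 ± 0.12 (fold 1.18, adjusted p = 0.718). Without dogs 12 and 42 the values were 0.43 for PPAT, 0.32 for RRM2 and 0.17 for PAICS, with p-values of 0.0844, 0.0577 and 0.167 before adjustment in limma. The RRM2 medians were 11.42 in static and 11.10 in ongoing dogs, and after each dog was centred on the mean of its specimen and diagnosis group, as for the rank-sum test, the medians differed by 0.070.

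The remaining 4 members lay closer together. The differences were 0.10 for ATIC (95% interval -0.063 to 0.265), 0.066 for CAD (-0.104 to 0.236), 0.035 for NME1 (-0.212 to 0.281) and 0.0076 for TYMS (-0.161 to 0.177). The median over the 7 genes was 0.10, against -0.0047 over all genes, of which 47.2% were above 0. At an unadjusted p under 0.05, 2 of the 7 members were higher and 0 lower, where 4.1% of all genes were higher and 3.02% lower. After adjustment limma called 0% of all genes in either direction, and so did the rank-sum test. In bulk tissue, fewer cells of a type and less RNA per cell cannot be told apart, here and in every comparison below.

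**Figure D1:**
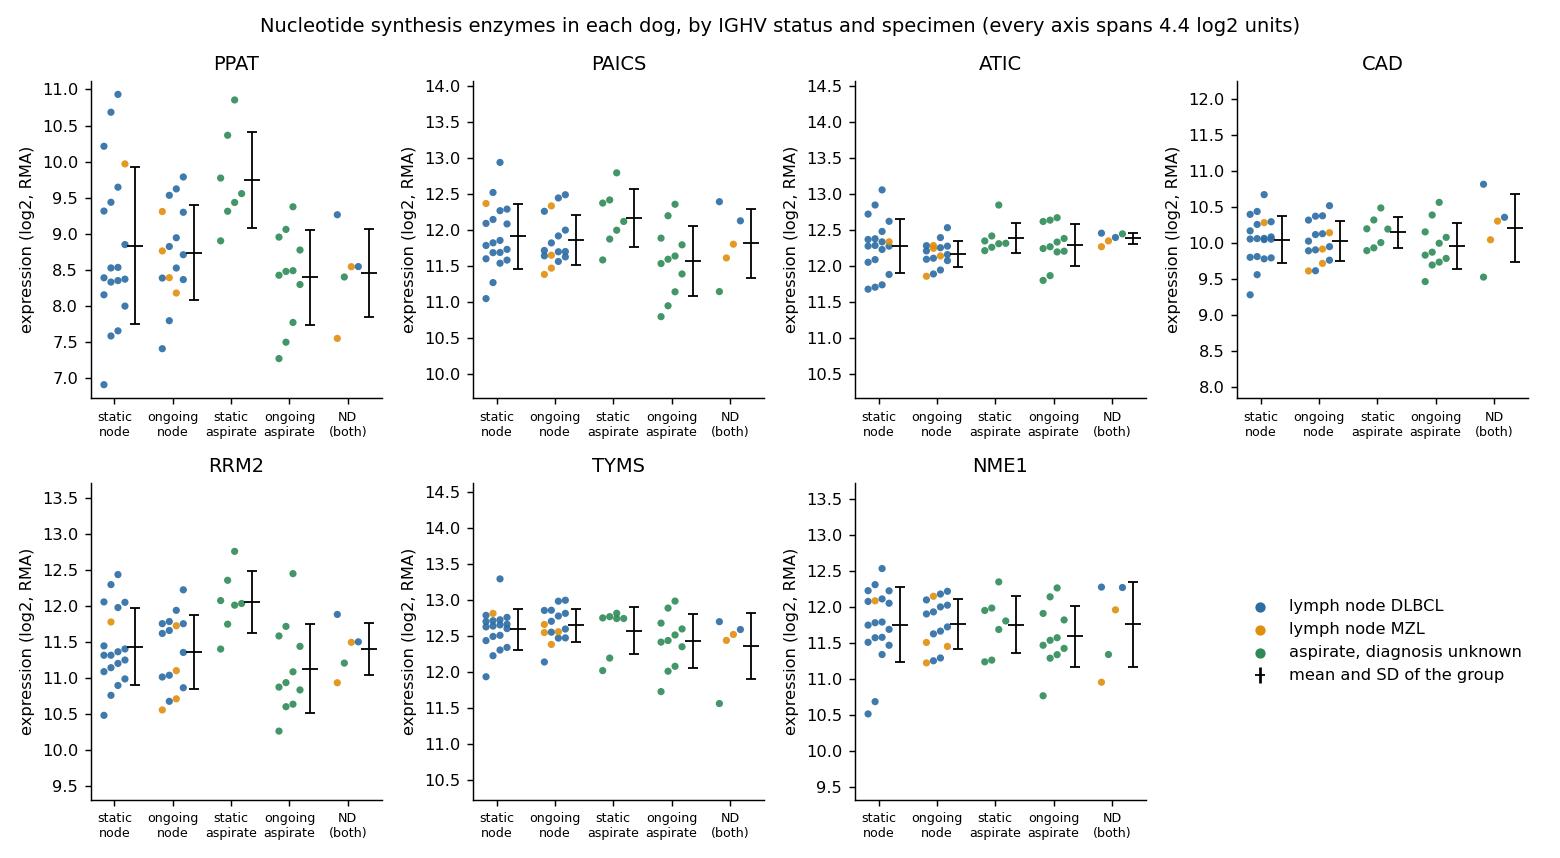
Log2 expression of the 7 enzyme genes in each of 58 dogs, by IGHV status and specimen, with points coloured by diagnosis and the mean and SD of each group beside them; all axes span the same number of log2 units. PPAT is spread over a range of 16.3-fold, and static aspirates have the highest mean for PPAT, PAICS, ATIC and RRM2.

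The static minus ongoing values were largest in aspirates for PPAT, RRM2 and PAICS, though no member passed the threshold there. PPAT in the 7 static aspirates was 8.90 at the lowest, 9.55 at the median and 10.85 at the highest (9.74 ± 0.67), and in the 11 ongoing aspirates 7.26, 8.47 and 9.37 (8.40 ± 0.66). Of the static aspirates, 5 of 7 lay above every ongoing one, and 8 of the 11 ongoing ones lay below every static one. The ongoing ones below every static one numbered 6 for CAD, 5 for PAICS, 4 for ATIC, 2 for TYMS and 1 for NME1. Such counts were made for the members alone, so they have no share over all genes to be read against. In aspirates alone the PPAT difference was 1.35 ± 0.30, a fold of 2.54, with an adjusted p of 0.0712. RRM2 ran from 11.40 through 12.03 to 12.76 in static and from 10.26 through 10.93 to 12.45 in ongoing aspirates, where 7 of 11 lay below every static one and dog 4 stood high among the ongoing. Its difference was 0.93 ± 0.25 (fold 1.90, adjusted p = 0.108). PAICS was 12.16 ± 0.40 against 11.57 ± 0.49, a difference of 0.59 ± 0.21 (fold 1.51, adjusted p = 0.188). None of the 3 passed the threshold, which 0.0132% of all genes passed upward and 0.0265% downward in aspirates. At an unadjusted p under 0.05, 3 of 7 members were higher and 0 lower, against 8.92% of all genes higher and 5.23% lower. The 3′ minus 5′ difference also moved with status there, from 0.36 through a median of 0.54 to 0.82 in static and from 0.53 through 0.94 to 2.28 in ongoing aspirates. With it as a covariate, an alternative added after the values were seen, limma gave 1.08 ± 0.31 for PPAT (adjusted p = 0.357), 0.92 ± 0.29 for RRM2 (adjusted p = 0.384), 0.46 ± 0.23 for PAICS (adjusted p = 0.619) and 0.34 in place of 0.19 for CAD (adjusted p = 0.482).

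In lymph node the values for the same genes lay nearer 0. PPAT was 8.83 ± 1.09 in 19 static and 8.74 ± 0.66 in 16 ongoing dogs, a difference of 0.14 ± 0.32 with a 95% interval from -0.51 to 0.78. RRM2 differed by 0.023 ± 0.18 (-0.34 to 0.39) and PAICS by 0.047 ± 0.14, and TYMS and NME1 were below 0, at -0.069 and -0.033. No member and 0% of all genes were called there in either direction (adjusted p of 0.999 for each member), with 145 genes higher and 194 lower at an unadjusted p under 0.05. In lymph node DLBCL alone, 5 of the 7 members were below 0, RRM2 at -0.058 and PAICS at -0.021.

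The difference between specimens was tested directly as the product of status and specimen. For RRM2 the static minus ongoing difference was larger in aspirates than in lymph node by 0.90 ± 0.31 (p = 0.00583, adjusted p = 0.375), for PPAT by 1.21 ± 0.50 (p = 0.0185, adjusted p = 0.466) and for PAICS by 0.55 ± 0.25 (p = 0.0346, adjusted p = 0.524). Over all genes 0.00662% passed the adjusted threshold upward and 0.00662% downward, with 5.15% and 3.95% at an unadjusted p under 0.05, so none of the 3 was called. Without dogs 12 and 42, the lowest ongoing and the highest static aspirate for PPAT, the PPAT difference in aspirates was 1.05 ± 0.26 (adjusted p = 0.155), the PAICS difference 0.43 ± 0.20 and the RRM2 difference 0.96 ± 0.28. The product of status and specimen was then 0.91 for PPAT (p = 0.0788), 0.38 for PAICS (p = 0.142) and 0.94 for RRM2 (p = 0.00703).

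**Figure D2:**
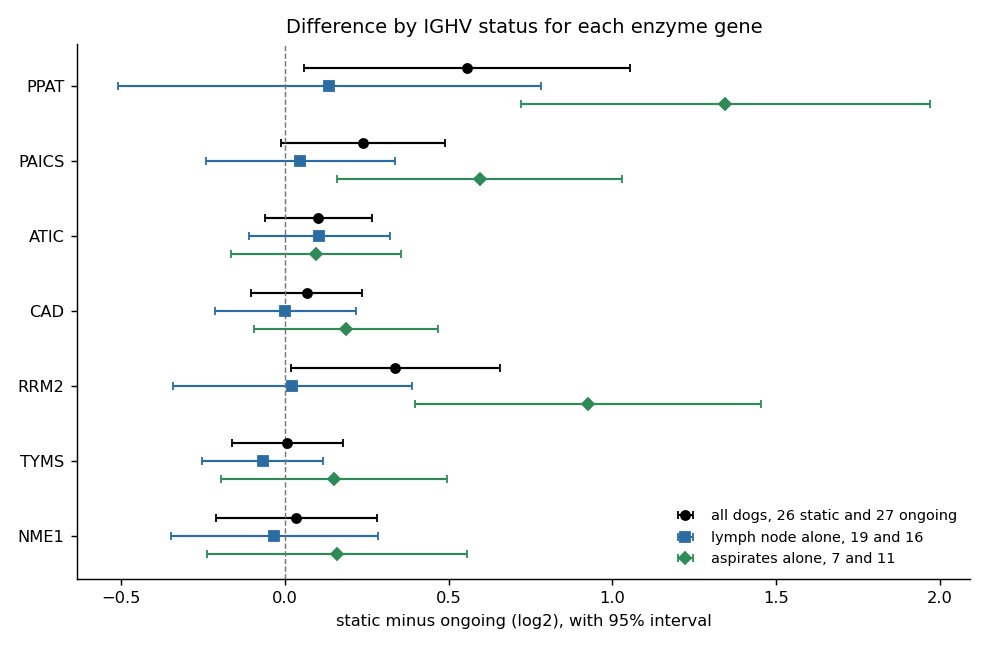
Static minus ongoing difference on the log2 scale for each enzyme gene, with its 95% interval from limma, over all dogs and in lymph node and aspirates alone. PPAT (1.35), RRM2 (0.93) and PAICS (0.59) stand away from 0 in aspirates, while in lymph node the interval of each of the 7 genes holds 0.

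Other genes of the same pathways were read from lists of 49 further genes with a probe set. Of these, 2 were higher and 0 lower in static dogs at an unadjusted p under 0.05, near the share of 4.1% of all genes higher, and none passed the adjusted threshold. The smallest p-values belonged to PRPS2, which makes the activated ribose that PPAT uses (0.41 ± 0.15, adjusted p = 0.670), and MTHFD2, a mitochondrial enzyme of the folate cycle (0.44 ± 0.18, adjusted p = 0.678). In aspirates 7 of the 49 were higher and 4 lower at that level, where 8.92% and 5.23% of all genes were, again with 0 past the adjusted threshold. Without dogs 12 and 42 these counts were 10 and 2, where 7.08% of the genes outside chromosome 13 were higher and 3.74% lower. With the 3′ minus 5′ difference as a covariate they were 4 and 3, for which no share over all genes is given here. In aspirates MTHFD2 had the smallest p, with a difference of 1.28 ± 0.24 (adjusted p = 0.0519). The nucleoside diphosphate kinase gene NME3 followed, with a difference of -0.48 ± 0.12 (adjusted p = 0.0824). In lymph node the smallest p-values belonged to ADA, which breaks down adenosine (-0.39 ± 0.17, adjusted p = 0.999), and IMPDH1, an enzyme of guanine nucleotide synthesis (-0.17 ± 0.10). For the product of status and specimen they belonged to MTHFD2 (1.30 ± 0.35, adjusted p = 0.198) and NME4 (-0.40 ± 0.15, adjusted p = 0.415). Among the 12 measured genes of purine synthesis, PPAT, PAICS and ATIC included, 11 were above 0 over all dogs, with a median of 0.098. Without the members 8 of 9 were, where 47.2% of all genes were above 0. The other lists, members included, varied. Those above 0 were 1 of 4 for pyrimidine synthesis, 4 of 10 for nucleotide kinases and 4 of 7 for salvage. They were 8 of 10 for deoxynucleotides and thymidylate, 5 of 5 for folate supply and 6 of 8 for breakdown. Of the 49 other genes 32 were above 0.

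Cell division genes were read beside the enzyme genes in aspirates. Of 27 measured proliferation genes, all 27 had a static minus ongoing value above 0, with a median of 0.59, where 46.5% of all genes were above 0. None of them passed the adjusted threshold, and 19 were higher at an unadjusted p under 0.05, against 8.92% of all genes. Their mean level per dog ran from 10.31 to 10.84 in static and from 9.42 to 10.75 in ongoing aspirates. In lymph node 24 of the 27 were above 0, with a median of 0.095. Of 19 genes of MYC activity and ribosome building, 17 were above 0 in aspirates (median 0.21). All 6 stroma markers were below 0 in static aspirates (median -0.15, mean levels from 6.02 to 7.38 in static and 6.26 to 8.04 in ongoing), as were 7 of 8 T-cell markers (median -0.22, mean levels from 9.01 to 9.54 and 9.10 to 10.29). The B-cell markers were split, with 3 of 7 above 0. The part of these cell types and of division in the enzyme gene differences was not tested.

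The mean levels over the 5 sets of dogs formed by status and specimen had no common order across the genes. For PPAT and PAICS the order from high to low was static aspirates, static lymph node, ongoing lymph node, ND and ongoing aspirates. RRM2 also had static aspirates first (12.05 ± 0.43) and ongoing aspirates last (11.13 ± 0.62). TYMS was highest in ongoing lymph node (12.65 ± 0.23) and lowest in ND dogs (12.37 ± 0.46), and NME1 lay between 11.59 and 11.76 in all 5. Neighbours in these orders differed by less than the larger of their SDs for every gene, except static aspirates against static lymph node for RRM2 (12.05 against 11.43 ± 0.53). The 5 ND dogs had PPAT levels of 7.55, 8.40, 8.54, 8.54 and 9.26, inside the range of the other dogs.

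Diagnosis was compared in lymph node. All 7 genes had a lower mean in MZL than in DLBCL, but none of the differences was larger than the spread between dogs. RRM2 was 10.55 at the lowest, 11.10 at the median and 11.77 at the highest in 7 MZL dogs, and 10.48, 11.38 and 12.43 in 32 DLBCL dogs. The MZL dogs lay inside the DLBCL range. The difference was -0.27 ± 0.20 (fold 0.830, p = 0.192, adjusted p = 1.00 in limma). NME1 differed by -0.18 ± 0.18, PAICS by -0.11 ± 0.16, PPAT by -0.11 ± 0.36, CAD by -0.084 ± 0.13, TYMS by -0.062 ± 0.10 and ATIC by -0.041 ± 0.12. With 7 MZL dogs the interval for RRM2 ran from -0.68 to 0.14, and for PPAT from -0.84 to 0.63. Limma called 0% of all genes in either direction, with 105 higher and 71 lower at an unadjusted p under 0.05 and no member among them. The median over the 7 was -0.11 against -0.0070 over all genes, of which 46.1% were above 0. Among the 49 other pathway genes, 0 were at an unadjusted p under 0.05, and the smallest p-values belonged to CMPK1, a kinase of pyrimidine monophosphates (0.21 ± 0.13), and SAMHD1, which destroys deoxynucleotides (0.21 ± 0.15). Proliferation genes were below 0 in 24 of 27, and all 6 stroma markers were above 0 in MZL (median 0.26). Their part in the member values was not tested.

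Aspirates and lymph node were compared without adjustment. Diagnosis is unknown in aspirates and the mix of IGHV status differed, so the part of the way of sampling alone was not tested. Aspirates against lymph node gave 3 members above and 4 below 0, and none passed the threshold that 0.0926% of genes passed upward and 0.0265% downward. TYMS was 11.57 at the lowest, 12.52 at the median and 12.99 at the highest in 19 aspirates and 11.94, 12.63 and 13.29 in 39 lymph nodes. Its difference of -0.18 ± 0.08 (fold 0.885, p = 0.0422, adjusted p = 0.399) was 1 member of 7 lower at an unadjusted p under 0.05, where 5.26% of all genes were lower and 6.52% higher. PPAT differed by 0.14 ± 0.25, NME1 and PAICS by -0.13 ± 0.12 each, ATIC by 0.090 ± 0.077, RRM2 by 0.068 ± 0.16 and CAD by -0.065 ± 0.087. Of the 49 other pathway genes 3 were higher and 1 lower at that level, with the smallest p-values for the nucleotide kinase genes NME4 (0.18 ± 0.07, adjusted p = 0.303) and AK1 (0.073 ± 0.033). All 8 T-cell markers were above 0 in aspirates (median 0.24) and 25 of 27 proliferation genes below 0 (median -0.099). Their part was not tested.

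Outcome was tested with a Cox score test for each gene, stratified by specimen. The hazard ratio of progression was above 1 for 6 of the 7 genes and below 1 for CAD, and none passed the threshold: 0% of all genes were called for PFS in either direction, with 236 at a higher and 192 at a lower hazard at an unadjusted p under 0.05. Whatever the p, 50.4% of all genes went with a higher hazard of progression. RRM2 had a level of 10.48 at the lowest, 11.42 at the median and 12.45 at the highest in the 24 dogs that progressed earlier, up to the median time of 202. In the 23 that progressed later it ran from 10.26 through 11.31 to 12.76. In the 8 dogs without a PFS event it ran from 10.55 through 11.72 to 12.07, so its median there was above that of both sets. The ranges overlapped over most of their length. The hazard ratio per log2 unit of RRM2 was 1.63 (95% interval 0.927 to 2.88, p = 0.0879, adjusted p = 1.00). For ATIC it was 1.79 (0.620 to 5.14), for TYMS 1.42 (0.473 to 4.27), for PAICS 1.28 (0.675 to 2.42), for NME1 1.16 (0.610 to 2.21), for PPAT 1.03 (0.729 to 1.47) and for CAD 0.662 (0.232 to 1.89).

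Overall survival gave a like order. RRM2 was 11.68 ± 0.55 in the 21 dogs that died up to the median time of 215 and 11.17 ± 0.57 in the 20 that died later. In the 15 dogs without an OS event RRM2 was 11.43 ± 0.50, between those means. Its hazard ratio was 1.69 (0.908 to 3.14, p = 0.0962, adjusted p = 1.00). In lymph node alone it was 2.87 (1.2 to 6.86, p = 0.0162, adjusted p = 0.693 over 37 dogs and 28 deaths), and in aspirates 0.972 (0.403 to 2.34). That difference between specimens was not tested. With IGHV status as a further stratum, over 52 dogs and 37 deaths, it was 2.39 for RRM2 (1.1 to 5.21, p = 0.0262, adjusted p = 0.938) and 0.277 for CAD (0.0704 to 1.09, adjusted p = 0.938). ATIC had a hazard ratio of 2.26 (0.675 to 7.59), NME1 1.32 (0.656 to 2.67), PAICS 1.24 (0.621 to 2.49), TYMS 1.10 (0.354 to 3.45), PPAT 1.05 (0.736 to 1.49) and CAD 0.470 (0.150 to 1.47). Over all genes 0.00662% were called at a higher hazard of death, which was 1 gene and no member, and 0% at a lower hazard. Among the 49 other pathway genes, SHMT1, which feeds carbon units into the folate cycle, had the smallest p for both outcomes, at a higher hazard (p = 0.0220 for PFS and 0.00886 for OS, adjusted p = 1.00 for both). TK1, the thymidine kinase of dividing cells, followed for PFS (p = 0.123, higher hazard) and CMPK1 for OS (p = 0.0204, lower hazard). Proliferation genes had a higher hazard in 26 of 27 for PFS and 25 of 27 for OS, where 50.4% and 46.8% of all genes had. The part of the proliferation genes in the RRM2 value was not tested.

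**Figure D3:**
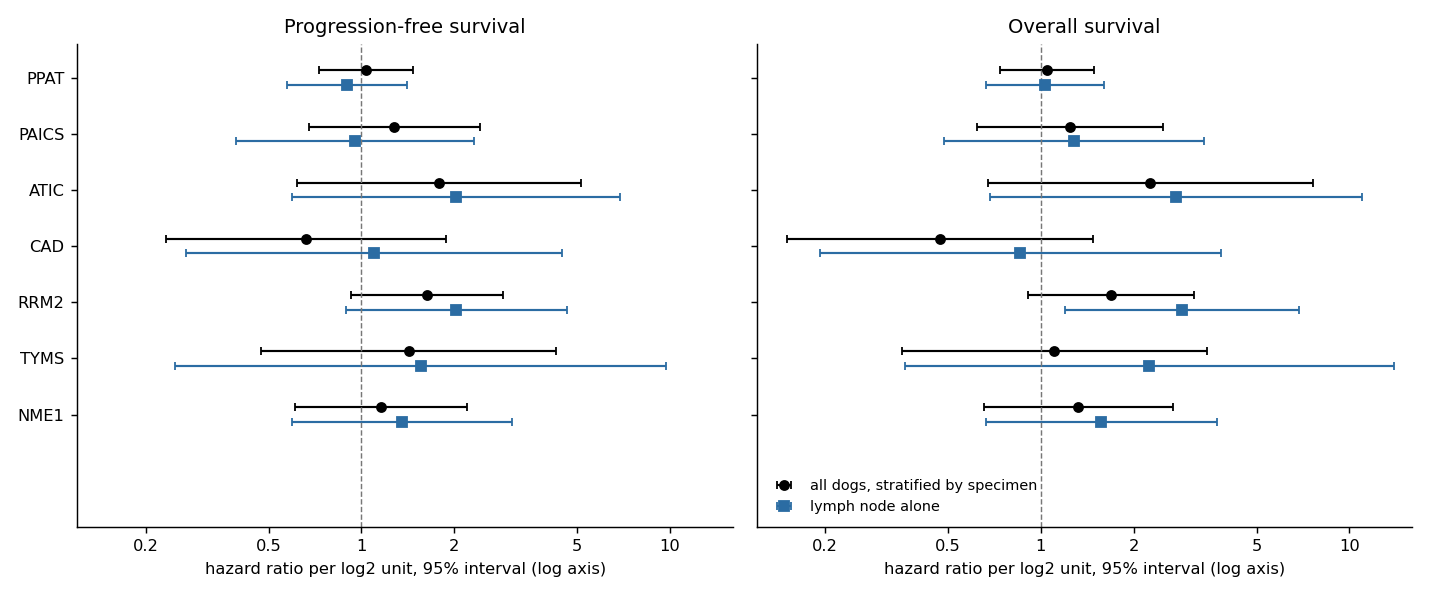
Hazard ratio per log2 unit of expression for PFS (left) and OS (right) on a log axis, with 95% intervals, over all dogs stratified by specimen and in lymph node alone. The interval for RRM2 and OS in lymph node (1.2 to 6.86) is the one that leaves out 1.

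The enzyme genes rose and fell together across dogs to different degrees. After each specimen was centred on its own mean, 20 of the 21 pairs of members had a Pearson r above 0 (median 0.329). In lymph node 18 of 21 did and in aspirates 21 of 21. A member's median r with all other genes lay between -0.156 (PPAT) and 0.068 (CAD). Ranked by r among 15114 other genes, PPAT was 13 for PAICS and RRM2 119 for TYMS. For PPAT, PAICS was 81 and ATIC 1086, and for NME1, TYMS was 677. Other genes thus stood closer to each member than any fellow member did. The closest pair was PPAT with PAICS, both of purine synthesis, at r = 0.77 and Spearman rho = 0.77 over 58 dogs (permutation p = 1e-05, the smallest that these permutations can give, adjusted p = 0.00021 over 42 relations). It held in lymph node (0.70, n = 39) and in aspirates (0.89, n = 19), at 0.73 without dogs 12 and 42, and at 0.71 without the 2 dogs farthest from the PPAT median. ATIC followed PAICS (r = 0.51, rho = 0.49, adjusted p = 0.00049) and PPAT (r = 0.50, rho = 0.43, adjusted p = 0.00049), and both fell to 0.47 without the 2 farthest dogs. RRM2 and TYMS, the deoxynucleotide enzymes, had r = 0.53 and rho = 0.53 (permutation p = 7e-05, adjusted p = 0.00049), at 0.55 without the 2 farthest dogs. Pairs of a purine with a deoxynucleotide enzyme came close for PAICS. Its r was 0.48 with TYMS (rho = 0.49, adjusted p = 0.0021, 0.58 without the 2 farthest dogs). With RRM2 it was 0.47 (rho = 0.44, adjusted p = 0.0021, 0.43 without them). PPAT and ATIC had a lower r with RRM2 and TYMS, from 0.20 to 0.33.

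NME1 went with TYMS (r = 0.49, rho = 0.55, adjusted p = 0.00049, 0.49 without the 2 farthest dogs) and RRM2 (r = 0.48, rho = 0.55, adjusted p = 0.00078, 0.50 without them). Its r with PPAT was -0.065 (rho = 0.056, permutation p = 0.630, adjusted p = 0.646) with ATIC 0.091 and with PAICS 0.24 (adjusted p = 0.107). CAD was nearest to RRM2 (r = 0.36, rho = 0.41, adjusted p = 0.0149, 0.36 without the 2 farthest dogs) and NME1 (r = 0.35, rho = 0.47, adjusted p = 0.0177, 0.38 without them), and had r = 0.068 with PPAT (adjusted p = 0.643). TOP2A, a topoisomerase of dividing cells read in place of MKI67, had r = 0.67 with RRM2 (rho = 0.68, adjusted p = 0.00021, 0.68 without the 2 farthest dogs) and 0.095 with CAD (adjusted p = 0.550). Its r was 0.44 with PPAT (adjusted p = 0.00277) and 0.42 with ATIC (adjusted p = 0.00343). It was 0.39 with PAICS (adjusted p = 0.00957), 0.37 with TYMS (adjusted p = 0.0149) and 0.17 with NME1 (adjusted p = 0.291). MYC itself was related to PAICS (r = 0.42, rho = 0.35, adjusted p = 0.00927, 0.34 without the 2 farthest dogs) and had r = 0.30 with PPAT (rho = 0.26, adjusted p = 0.0507). PPAT was lower where the 3′ minus 5′ difference was larger (r = -0.43, rho = -0.40, adjusted p = 0.00309, -0.41 without the 2 farthest dogs), in lymph node (-0.37) and in aspirates (-0.56). With that difference as a covariate, the static minus ongoing value of PPAT was 0.49 in place of 0.56 (p = 0.0352, adjusted p = 0.749 in limma). RRM2 had r = -0.15 with it and rho = -0.41 (adjusted p = 0.00532 for rho). CAD had r = 0.34 with it but rho = 0.15 (adjusted p = 0.324 for rho).

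**Figure D4:**
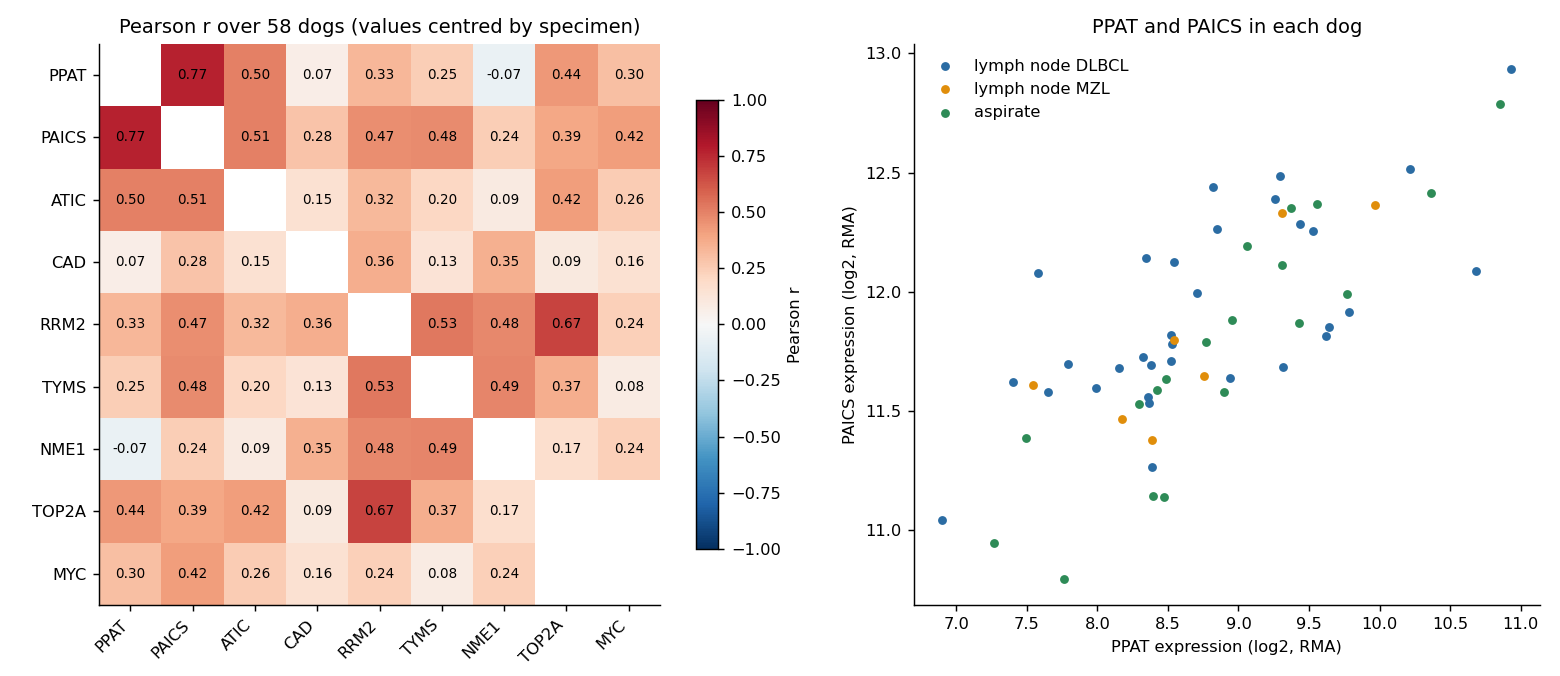
Left, Pearson r between the 7 enzyme genes, TOP2A and MYC over 58 dogs, after each specimen was centred on its mean. Right, PPAT and PAICS levels (log2) in each dog by specimen and diagnosis; the pair with r = 0.77 is the closest, and the dogs high in both include 39 and 42.

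Some dogs were high or low in most of the genes. Dogs 1 and 31 (aspirates) and 45 (an MZL lymph node) were among the 10 lowest for 5 of the 7 genes. Dog 51 (an aspirate) was among them for 6, and all 4 had ongoing IGHV status. Their ranks from the highest for the mean of the proliferation genes were 58, 57, 52 and 55 of 58. Dogs 30, 16 and 22, at ranks 56, 54 and 53, were each among the 10 lowest for 1 gene only. Dogs 4 and 42 were among the 10 highest for 5 genes and dogs 39 and 54 for 4. Their ranks for the proliferation genes were 9, 14, 3 and 23. Dogs 4 and 54 had ongoing and dogs 39 and 42 static IGHV status. Dog 42 was also among the 10 lowest for TYMS and NME1. Dog 6 was in the top 10 for PPAT, PAICS and ATIC and had the lowest NME1 of all dogs.

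Each gene's nearest neighbours by expression were taken as the 3 genes with the highest r over the 58 dogs. For RRM2 they were the cyclin gene CCNA2 (0.873), the cell cycle regulator gene E2F8 (0.872) and the cytokinesis gene CEP55 (0.855), and its median r with the 27 proliferation genes was 0.770, all 27 above 0. For TYMS they were RMI2, RFC4, a subunit of the replication clamp loader, and HPF1 (0.732, 0.721 and 0.703), with a median of 0.504 for proliferation genes. PAICS had a median of 0.515 with that list, NME1 0.418, CAD 0.366, PPAT 0.333 and ATIC 0.326. NME1 was most like SSBP1, a mitochondrial DNA-binding protein gene (0.854), the mRNA export gene ALYREF (0.851) and the mitochondrial ribosome gene MRPL27 (0.832). CAD was most like ABCF1 (0.810), MYBBP1A (0.771) and the vitamin transporter gene SLC5A6 (0.740), and ATIC like the DNA repair gene XRCC5 (0.755), IARS2 (0.742) and DDX1 (0.741). PPAT was most like AZIN1 (0.907), EFR3A (0.901) and CARNMT1 (0.898), and PAICS like NOA1 (0.899), SLC30A9 (0.850) and the signal recognition particle gene SRP72 (0.841).

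PPAT and PAICS are next to each other in the dog genome, on chromosome 13 in the RefSeq table used for neighbours (assembly UU_Cfam_GSD_1.0), and MYC lies on that chromosome too. The human pair is known to be transcribed from a shared promoter region in opposite directions. Of the 3 genes most like each, AZIN1 and EFR3A for PPAT and NOA1, SLC30A9 and SRP72 for PAICS are also on chromosome 13. XRCC5 likewise shares chromosome 37 with ATIC, SLC5A6 chromosome 17 with CAD, and ALYREF and MRPL27 chromosome 9 with NME1, while none of those for RRM2 and TYMS shares theirs. Chromosome 13 holds 1.91% of the genes measured, and of the 100 genes most like PAICS 35 lay on it (45 of 100 in lymph node, 18 of 100 in aspirates). Of the 100 most like PPAT, 16 did (14 and 14). An r above 0.5 with PAICS was found for 22.9% of the other 288 genes on chromosome 13 and for 4.18% of genes elsewhere, and with PPAT for 18.4% and 7.01%. For the other members the shares on the own chromosome and elsewhere were 4.57% and 1.80% for ATIC (chromosome 37), 1.32% and 0.914% for CAD (chromosome 17), 3.31% and 2.77% for RRM2 (chromosome 17), 1.39% and 1.14% for TYMS (chromosome 7) and 4.97% and 4.19% for NME1 (chromosome 9). In aspirates alone the shares were 19.1% and 11.5% for PPAT, 24.3% and 11.0% for PAICS, 13.2% and 6.78% for RRM2 and 9.36% and 5.22% for TYMS.

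Close neighbours did not all follow. Next to the pair, the centriole gene CEP135 had r = 0.86 with PPAT and 0.76 with PAICS, SRP72 0.78 and 0.84, EXOC1 0.66 and 0.56 and AASDH 0.48 and 0.63, while ARL9 (-0.17 and -0.14), SPINK2 (-0.25 and -0.099) and PDCL2 (-0.15 and -0.052) did not follow either gene. These shares are descriptions over genes of the same arrays, with no test, and genes are not independent. Copy number was not measured, and its part in the pattern was not tested.

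**Figure D5:**
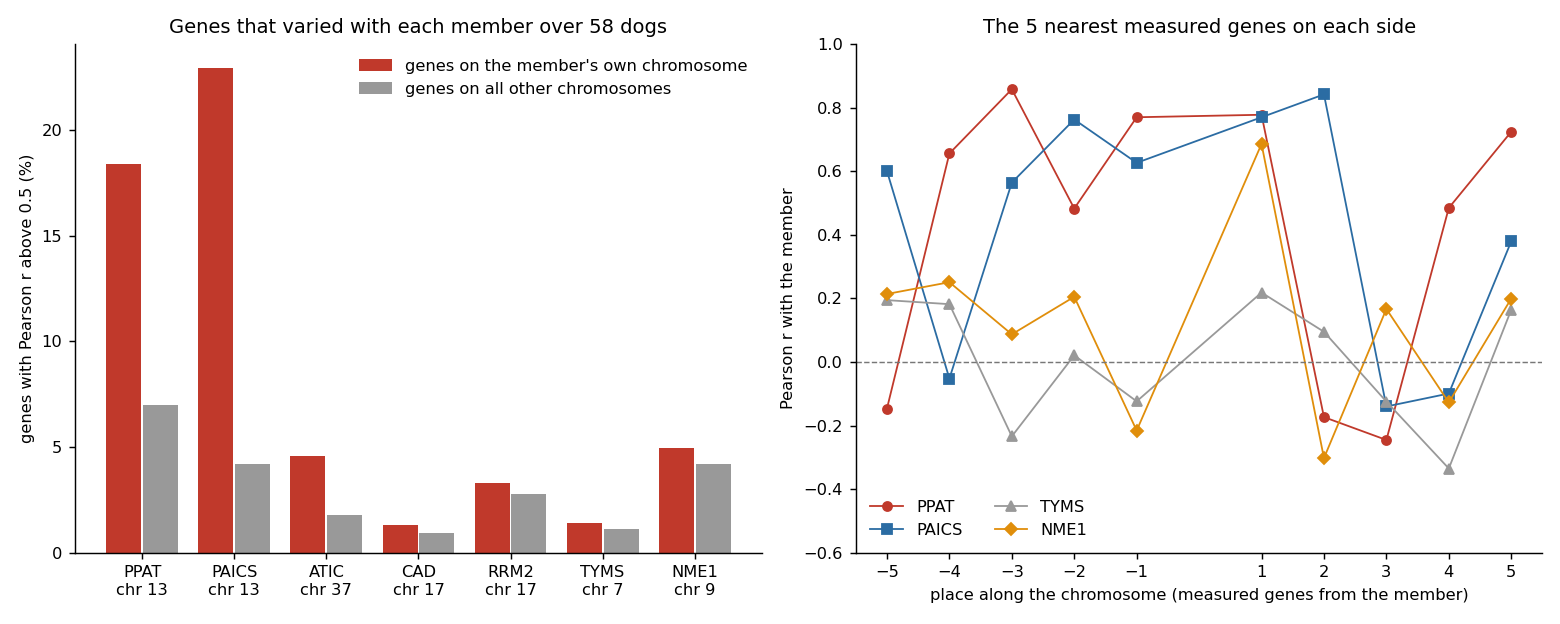
Left, percent of genes with a Pearson r above 0.5 with each member over 58 dogs, on the member's own chromosome and elsewhere. Right, r with the 5 nearest measured genes on each side of PPAT, PAICS, TYMS and NME1; for PAICS 22.9% of chromosome 13 genes are above 0.5 against 4.18% elsewhere.

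Other probe sets of the same genes gave a check on these readings. The second probe set followed the used one at r = 0.97 for RRM2 and 0.91 for PAICS, and the further 2 for TYMS at 0.92 and 0.85. For ATIC the second probe set was dim, with a mean of 7.10, and had r = 0.16. PPAT and CAD had 1 probe set each, so their values rest on it. NME1 was read from a probe set that can share signal with related genes, 4 more carried 2 gene IDs of the name NME1, and r with them and with 1 for the second ID lay between 0.77 and 0.93. The near-identical gene NME2, next to NME1, had r = 0.69 with it, so the NME1 values are uncertain as to the source of their signal. In static against ongoing dogs the second probe sets of RRM2 and PAICS gave 0.44 and 0.42 in place of 0.34 and 0.24, both with an adjusted p above 0.7 (0.728 and 0.733).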

How the data were processed

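The authors deposited 1 table of log2 expression values, 58 arrays by 43035 probe sets, made with Affymetrix Expression Console and RMA per the submitters' processing notes, with no version given. RMA evens out the arrays, so shifts shared by all genes are removed. RNA was extracted with Trizol and labelled with biotin, per the labels' protocols. The log2 scale was read from the values (2.82 to 15.11). An annotation table gave 1 symbol for 29254 probe sets, several for 439 and none for 13167, beside 175 controls. A gene was read from its probe set with the highest mean, without a filter on low values.

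All genes entered 2-sided limma fits (limma 3.58.1, R 4.3.3) with Benjamini-Hochberg adjustment at 0.05: static minus ongoing with specimen and diagnosis as strata (53 dogs), MZL minus DLBCL (39) and aspirate minus lymph node (58). Cox score tests used survival 3.8.3 for hazard ratios. An indicator of 1 was taken to mean an event, since PFS and OS times were the same in each of the 8 dogs whose PFS indicator was 0. Relations used 100000 permutations within specimen. Python 3.11.15 and matplotlib 3.10.9 drew the figures. Each dog gave 1 array, so p-values measure the spread between dogs. The members, the lists and the rule for named genes were chosen with earlier results of these data known. That rule took the members, the 2 other pathway genes with the smallest p in each comparison, the 3 genes most like each member, and MKI67 and MYC; MKI67 has no probe set named here, so TOP2A was read in its place, chosen after the values were seen. Genes of the lists without a named probe set were not analysed here. The models were tested on simulated data before use. Alternatives changed the probe set, scaling, filter, arrays, covariates, strata and test. No sequences were used here.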

Additional observations from a re-analysis of the deposited data

Results flagged for a closer look

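Of 28 combinations of gene and group of 4 to 7 dogs that were checked, 3 had a dog far from the rest of its group, and chance alone gives about 5% of groups. In the MZL lymph nodes the lowest ATIC level was 11.86 and the next 12.14. Among static aspirates the highest ATIC level was 12.85, in dog 42, and the next 12.42. In ND dogs the lowest TYMS level was 11.57, in the only aspirate of that group.

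For 3 genes the static minus ongoing difference was larger in aspirates than in lymph node at an unadjusted p under 0.05 for the product of status and specimen. The extra difference was 1.21 for PPAT, 0.55 for PAICS and 0.90 for RRM2 on the log2 scale. None passed the adjusted threshold, with adjusted p-values of 0.466, 0.524 and 0.375 from limma.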

How the results depend on the processing

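No member passed the adjusted threshold in any comparison under any alternative, and the lowest adjusted p was 0.0712 for PPAT by IGHV status in aspirates alone. Genes called over all genes numbered 18 for specimen and 5 to 58 under alternatives, 0 and 0 to 6 for IGHV status, 1 and 0 to 3 for OS, 0 and 0 to 1 for PFS, and 0 throughout for diagnosis. Members above 0 numbered 7 for IGHV status and 2 in lymph node DLBCL alone, 0 for diagnosis and 1 with the rank-sum test or with IGHV status as a covariate, and 6 for OS and 3 in aspirates alone.

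The median difference of RRM2 by IGHV status was 0.070 for the rank-sum test, in the same direction as the limma value of 0.34. Directions turned as follows. For IGHV status in lymph node DLBCL, PAICS was -0.021, CAD -0.047, RRM2 -0.058, TYMS -0.11 and NME1 -0.092, and in lymph node TYMS was -0.069 and NME1 -0.033. PPAT by diagnosis was 0.0040 in the rank-sum test and 0.21 with IGHV status as a covariate. By specimen, ATIC was -0.071 as a mean of probe sets and CAD 0.0087 with IGHV status as a covariate. As log hazard ratios for PFS, PPAT was -1.6e-05 without the 2 arrays of highest 3′ minus 5′ difference, -0.12 with IGHV status as a further stratum and -0.11 in lymph node, where PAICS was -0.047 and CAD 0.095, and NME1 was -0.14 in aspirates. For OS, PPAT was -0.047 without dogs 12 and 42 and -0.027 without dogs 12 and 41, and in aspirates RRM2 was -0.028, TYMS -0.36 and NME1 -0.13. Other probe sets, an alternative chosen after seeing the data, gave -0.0089 for NME1 by IGHV status, -0.23 for ATIC, -0.053 for RRM2 and 0.012 and 0.078 for NME1 by specimen, -0.034 for ATIC and -0.19 for NME1 for PFS, and -0.20 for NME1 for OS. Correlations that turned were PPAT with CAD (-0.0064 in lymph node, -0.023 without the 2 farthest dogs), PPAT with NME1 (0.23 in aspirates), CAD with TYMS (-0.016) and with TOP2A (-0.094) in lymph node, TYMS with MYC (-0.031 without the 2 farthest dogs), NME1 with MYC (-0.097 in aspirates), and those with the 3′ minus 5′ difference for PAICS (0.051 in lymph node, 0.014 without dogs 12 and 42), ATIC (-0.21) and TYMS (0.046) in aspirates. The causes were not tested. No paired analysis was possible because each dog gave 1 sample, so the groups compared share no replicate number. Signal over background was not measured here.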

Other observations

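The neighbours of PPAT and PAICS were also read by IGHV status in aspirates, chosen after their likeness was seen, so the values are a description with no test. CEP135 was higher in static aspirates by 0.95 on the log2 scale, NOA1 by 0.65 and REST by 0.61, while EXOC1 differed by 0.26, SRP72 by 0.25 and SPINK2 by -0.19. Without dogs 12 and 42 the first 3 values were 0.66, 0.52 and 0.47. Over the 287 other measured genes of chromosome 13, the median static minus ongoing difference in aspirates was 0.011 with 53.3% above 0, against -0.012 and 46.4% on the other chromosomes. At an unadjusted p under 0.05, 9.76% of them were higher and 2.09% lower, against 8.89% and 5.29% elsewhere.

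The likeness of PPAT to markers of other cells differed between the lists. Its r was below 0 for all 6 stroma markers (median -0.289) and all 6 endothelial markers (median -0.343), and for 6 of 8 macrophage markers (median -0.201). It was above 0 for all 5 granulocyte markers (median 0.137) and for 4 of 8 T-cell markers (median 0.0023), and its median r over all other genes was -0.156. CAD was below 0 for 6 of 7 B-cell markers (median -0.325). The part of cell mixture in these values was not tested.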
